A study of Mus musculus with 21 samples.

Results

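Endothelial transcripts, from the cells that line blood vessels, were followed in mouse hepatoma tumours treated with immune checkpoint antibodies. The list holds 10 genes, Pecam1, Cdh5, Kdr, Flt1, Eng, Tek, Vwf, Esam, Sox17 and Plvap, out of 55487 gene identifiers in the deposited count table. They were listed by symbol, as textbook endothelial markers, with earlier results of these data known. Symbols were matched to the Ensembl identifiers through the GRCm38 annotation. All 10 genes had reads in every library and passed the filter on low counts. Messenger RNA had been sequenced in 21 libraries from frozen tumours grown from Hepa1-6, a mouse hepatoma cell line, in C57BL/6 mice. WT isotype (5 libraries) came from wild-type mice given isotype control antibody, and WT combination (5) from wild-type mice given anti-PD1 plus anti-CTLA4, which block a pair of receptors that restrain T cells. B-depleted isotype (6) and B-depleted combination (5) came from mice depleted of B cells under the same antibodies, so every group carries the same transplanted line. The labels give neither the method of B-cell depletion nor the site of the tumours, the age and sex of the mice or the antibody schedule. They also do not say that each library is a separate animal, so the p-values measure the spread between these samples, which may be technical.

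Endothelial cells grow, branch and survive under vascular endothelial growth factor (VEGF), which signals mainly through the receptor that Kdr encodes, while the receptor encoded by Flt1 binds the ligand tightly and limits it. Angiopoietins act through the receptor Tek and set how quiet or leaky a vessel is, and bone morphogenetic proteins of the circulation act on endothelium through the co-receptor Eng. Adhesion proteins such as those of Cdh5, Pecam1 and Esam close the gaps between neighbouring cells. Hepatocellular carcinoma is a tumour rich in arterial vessels, and drugs against VEGF are given with checkpoint antibodies to patients who have it.

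The genes lie apart in the genome (GRCm38, GENCODE M21). Kdr (ENSMUSG00000062960.10) spans chr5:75932827-75978458 on the minus strand, and Flt1 (ENSMUSG00000029648.13) spans chr5:147561604-147726011 on the minus strand, on the same chromosome. Tek (ENSMUSG00000006386.15) spans chr4:94739289-94874976 on the plus strand, Eng (ENSMUSG00000026814.16) spans chr2:32646595-32682669 on the plus strand, and Pecam1 (ENSMUSG00000020717.19) spans chr11:106654217-106750628 on the minus strand. Cdh5 (ENSMUSG00000031871.9) spans chr8:104101625-104144511 on the plus strand, and Plvap (ENSMUSG00000034845.6) spans chr8:71497765-71511752 on the minus strand, again on one chromosome. Esam (ENSMUSG00000001946.14) spans chr9:37528078-37538319 on the plus strand, Vwf (ENSMUSG00000001930.17) spans chr6:125546774-125686679 on the plus strand, and Sox17 (ENSMUSG00000025902.13) spans chr1:4490931-4497354 on the minus strand. Annotated genes on the other strand overlap Eng (Fpgs), Plvap (Gtpbp3), Cdh5 (Gm29682) and Sox17 (Gm37587). Whether counting used strand is not given in the sources used here, so for these 4 genes reads of the overlapping partner cannot be told apart from their own.

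The sequences around 4 of the start sites are shown because the genes encode receptors of the list and their calls differed. RefSeq's promoter table for GRCm38.p6 had entries for 4 of the 10 genes, Kdr, Flt1, Eng and Tek, and not for Pecam1, Cdh5, Vwf, Esam, Sox17 and Plvap. Each window runs from 250 bases before to 50 bases after the start and is printed along the direction of transcription. The Kdr window is chr5:75978406-75978705 on the minus strand. The Flt1 window is chr5:147725962-147726261 on the minus strand. For Eng it is chr2:32646345-32646644 on the plus strand, and for Tek chr4:94739039-94739338 on the plus strand. Capitals mark AGGAAG or its reverse complement CTTCCT, a form of the sites bound by ETS factors. That family includes the endothelial regulators Erg and Fli1. Shorter and other forms of these sites were not searched, so a window without capitals may still hold them.
Kdr: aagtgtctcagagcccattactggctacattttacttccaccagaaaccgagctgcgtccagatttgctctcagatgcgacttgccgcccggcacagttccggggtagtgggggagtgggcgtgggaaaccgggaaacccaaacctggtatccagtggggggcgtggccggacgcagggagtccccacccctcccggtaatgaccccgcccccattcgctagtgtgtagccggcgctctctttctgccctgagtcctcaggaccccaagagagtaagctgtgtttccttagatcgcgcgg
Flt1: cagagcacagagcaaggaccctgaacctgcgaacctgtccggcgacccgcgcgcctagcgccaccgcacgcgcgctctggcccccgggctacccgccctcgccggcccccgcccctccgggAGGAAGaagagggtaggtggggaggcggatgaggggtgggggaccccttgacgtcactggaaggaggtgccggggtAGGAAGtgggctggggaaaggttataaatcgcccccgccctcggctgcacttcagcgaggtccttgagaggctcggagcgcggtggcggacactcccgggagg
Eng: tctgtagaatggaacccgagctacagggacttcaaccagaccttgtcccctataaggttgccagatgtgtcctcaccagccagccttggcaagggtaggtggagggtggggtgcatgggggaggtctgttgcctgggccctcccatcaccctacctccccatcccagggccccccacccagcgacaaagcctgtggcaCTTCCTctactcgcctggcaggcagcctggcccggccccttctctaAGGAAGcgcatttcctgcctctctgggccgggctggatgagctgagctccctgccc
Tek: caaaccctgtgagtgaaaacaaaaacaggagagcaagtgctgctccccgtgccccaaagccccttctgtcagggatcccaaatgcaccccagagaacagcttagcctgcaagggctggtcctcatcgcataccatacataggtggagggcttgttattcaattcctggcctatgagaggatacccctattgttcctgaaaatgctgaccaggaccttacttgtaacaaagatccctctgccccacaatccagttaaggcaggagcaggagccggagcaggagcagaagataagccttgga

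Flt1 and Eng each held 2 matches to AGGAAG on either strand, at -129 and -53 and at -52 and -6 relative to the start. Kdr and Tek held 0, and 35.4% of the 32851 promoters in the table held at least 1. GATAAG, a motif of GATA factors, was found once, in Tek at 38 bases past the start (7.4% of promoters hold it). TATAAA was found in Flt1 at -31 (13.6% of promoters). ACAATG, a motif of SOX factors, was in none of the 4 windows and in 12.6% of promoters. CACCC, bound by KLF factors, was in all 4 windows, 4 times in Eng and once in each of the other three, against 57.5% of promoters. The G and C content was 60.7% in Kdr, 70.7% in Flt1, 63.3% in Eng and 52.0% in Tek, beside a median of 52.7%. Both strands were searched, and no motif overlapped an ETS match. These matches describe letters and say nothing of binding. In the counts below, Flt1 and Eng changed in both comparisons of WT combination tumours, Tek in 1 of them and Kdr in neither, but 4 promoters are too few for any comparison with the motifs.

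Total counts ran from 9.52 to 19.17 M per library (median 15.9 M). Levels are given as counts per M of the library total (CPM), and at the lowest depth 1 CPM is 9.52 counts. Tek (14 to 245 counts per library) and Sox17 (28 to 126) were the shallowest of the 10, and Pecam1 (663 to 2212) and Flt1 (901 to 2337) the deepest, so fold changes of Tek and Sox17 are the least precise. Tests are edgeR's quasi-likelihood test on 19061 genes in 1 model of all 21 libraries, and calls are adjusted p (Benjamini-Hochberg, over all genes) under 0.05. Changes are log2 fold changes ± SE. The labelled tissue was checked against its markers. All 5 hepatocyte and hepatoma genes (Alb, Afp, Apob, Ttr and Hnf4a) had reads in every library, but their sum ran from 144 CPM in WT combination replicate 5 to 4294 CPM in WT isotype replicate 3. Of the B-depleted libraries, isotype replicates 3 and 5 still held 94.2 and 34.8 CPM of B-cell transcripts, each more than 3 of the 5 WT isotype libraries. They held 376.1 and 399.8 CPM of immunoglobulin transcripts, against 25.5 to 79.0 CPM in the other 9 B-depleted libraries. Between B-depleted and WT isotype tumours edgeR called 0 of 6 B-cell genes (median change -1.8), beside 0% of all genes. Under the combination all 6 were lower in B-depleted tumours, beside 13.5% of all genes.

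Set per kilobase of exon, so that genes can be compared, the list spanned more than an order of magnitude. In WT isotype tumours Esam stood highest at 16.8 ± 1.25 CPM per kilobase (SD, n = 5), followed by Plvap at 15.4 ± 4.06, Cdh5 at 13.5 ± 3.43 and Pecam1 at 11.2 ± 1.74. Each of these neighbours differed by less than the larger of their SDs. Eng (7.39 ± 1.58) and Flt1 (6.09 ± 1.3) lay below Pecam1 by more than either SD and did not differ from each other beyond their spread. Kdr (2.34 ± 0.746) was lower than Flt1 by more than either SD, and close to Vwf (1.74 ± 0.256). Tek (0.884 ± 0.4) and Sox17 (0.541 ± 0.0871) closed the order. B-depleted isotype tumours had the same order. In WT combination tumours Plvap (25.6 ± 6.37), Cdh5 (20.6 ± 5.92), Pecam1 (17.9 ± 4.14) and Eng (16.7 ± 4.89) stood above Esam (14.9 ± 1.82), which thus went from the first place to the fifth. Vwf (3.59 ± 1.46) and Kdr (3.49 ± 1.64) were again next to each other, as they were in B-depleted combination tumours (2.65 ± 0.727 and 2.402 ± 0.936).

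**Figure D1:**
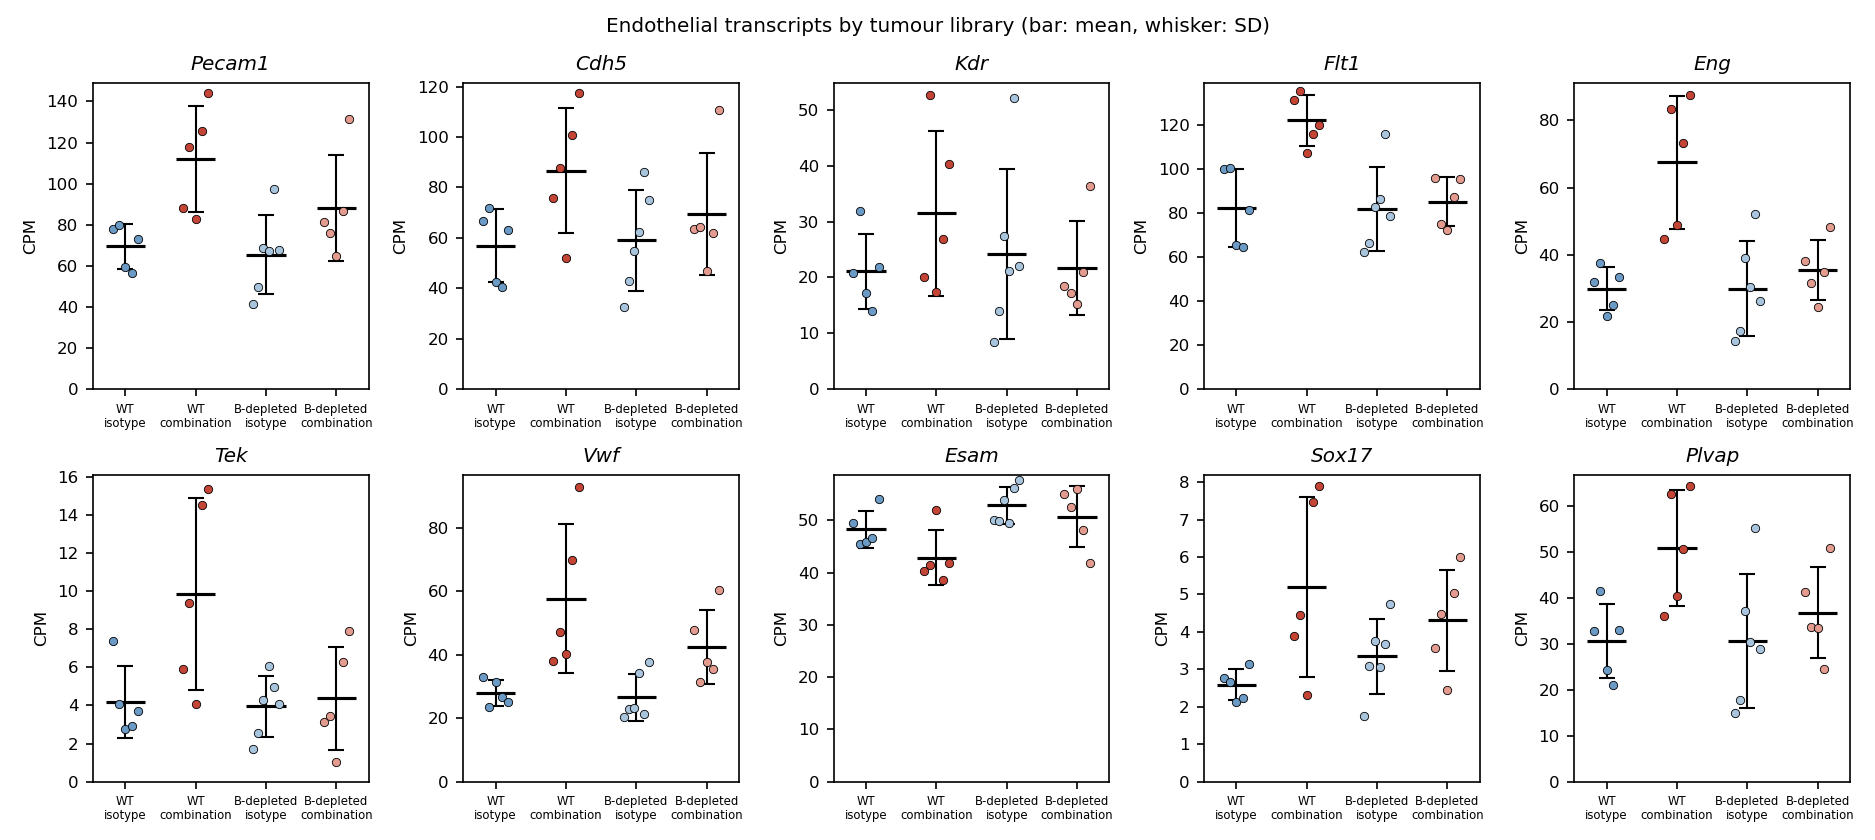
CPM of each of the 10 genes (vertical axes, linear from 0) in the 21 libraries by group (horizontal axes), with points for libraries, bars for group means and whiskers for SD. For Pecam1, Flt1, Eng and Vwf all 5 WT combination libraries lie above all 5 WT isotype libraries, while Esam lies between 38.6 and 57.7 CPM in all 21.

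In WT tumours, which address the antibody response with B cells present, most endothelial transcripts were higher under the combination. Of the 10 genes, 7 rose (Tek, Eng, Vwf, Sox17, Plvap, Pecam1 and Flt1) and none fell. That is read beside 25.0% of all genes tested called higher and 50.0% called in either direction. The list was chosen with earlier results of these data known, so the counts describe it and do not test it. The median change of the 10 was 0.73, against -0.001 over all genes. The groups lay apart, all combination libraries above all isotype libraries, for 4 of the 10, against 15.0% of all genes. In bulk tumour RNA, more cells of a type, more RNA per cell and a smaller share of other cells cannot be told apart.

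Kdr, the main signalling receptor for VEGF, stood at 20.8, 31.9, 17.2, 14.0 and 21.8 CPM in WT isotype replicates 1 to 5 and at 20.1, 52.7, 17.4, 26.9 and 40.3 CPM in WT combination. Combination replicates 2 and 5 lay above every isotype library and the other three lay within the isotype range. Kdr did not pass the test (0.60 ± 0.40, edgeR adjusted p = 0.214), and 2 SE on either side span -0.19 to 1.39. Flt1, the VEGF receptor that also acts as a decoy, gave 99.8, 100.4, 65.3, 64.7 and 81.2 CPM under isotype and 131, 136, 107, 116 and 120.0 CPM under the combination. Its groups did not overlap, and it rose by 0.59 ± 0.15 (edgeR adjusted p = 0.004), the smallest SE of the genes that rose. The log2 ratio of Flt1 to Kdr changed by 0.09 between the groups (exact permutation p = 0.77, 2-sided).

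Tek, the angiopoietin receptor, was low throughout, at 7.40, 4.06, 2.76, 2.92 and 3.69 CPM in WT isotype and 5.91, 9.39, 4.09, 14.5 and 15.4 CPM in WT combination. Isotype replicate 1 lay above combination replicates 1 and 3, and the other 4 isotype libraries lay below the whole combination group. Tek rose by 1.26 ± 0.46 (edgeR adjusted p = 0.0278). The call was lost with the description number as a replicate block (adjusted p = 0.0914), without a filter on low counts (0.0762), without WT isotype replicate 2 (0.051), 3 (0.0655), 4 (0.069) or 5 (0.0609) and without WT combination replicate 4 (0.0755) or 5 (0.0815). Eng, the co-receptor for circulating bone morphogenetic proteins, stood at 31.9, 37.6, 21.8, 25.1 and 33.3 CPM under isotype and 44.6, 83.4, 48.8, 73.4 and 87.6 CPM under the combination. No library of one group reached the other, and combination replicates 2, 4 and 5 held the highest levels. Eng rose by 1.20 ± 0.29 (edgeR adjusted p = 0.0027).

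Of the junction genes, Pecam1 rose and the other two did not pass. Pecam1 encodes CD31, an adhesion protein that leukocytes and platelets carry as well, and it stood at 78.0, 80.0, 59.3, 56.5 and 73.3 CPM in WT isotype and at 88.3, 118, 82.9, 126 and 144 CPM in WT combination. The groups touched closely, at 80.0 and 82.9 CPM, without overlapping, and the change was 0.71 ± 0.22 (edgeR adjusted p = 0.0118). Cdh5, which encodes VE-cadherin, the adherens junction protein restricted to endothelium, gave 66.7, 71.8, 42.6, 40.4 and 63.0 CPM under isotype and 75.8, 87.8, 51.9, 101 and 117 CPM under the combination. Combination replicate 3 lay inside the isotype range and the other 4 above it. At 0.63 ± 0.27 its edgeR adjusted p of 0.0591 missed the threshold, which it passed without WT combination replicate 3 (0.76, adjusted p = 0.0251), B-depleted isotype replicate 1 (adjusted p = 0.0423) or B-depleted combination replicate 5 (adjusted p = 0.0356). Cdh5 also passed by DESeq2 (adjusted p = 0.0473), in a fit of the 2 groups alone (0.0388), with the title number as a replicate block (0.0301) and without WT isotype replicates 1 and 2 (0.0402).

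Esam, a tight junction protein of endothelium and platelets, had a negative estimate. Its levels were 49.4, 45.4, 45.8, 46.6 and 54.0 CPM in WT isotype and 40.4, 41.5, 51.9, 38.6 and 41.8 CPM in WT combination. Combination replicates 1, 2, 4 and 5 lay below every isotype library, and combination replicate 3 lay among them. The change of -0.15 ± 0.09 did not pass (edgeR adjusted p = 0.16), with 2 SE spanning -0.33 to 0.03. Without WT combination replicate 3 it was -0.24 and passed as lower (adjusted p = 0.0124). The interval lies wholly below the estimates of the 7 genes that rose, but the difference between genes was tested only as ratios to Cdh5. The log2 ratio of Esam to Cdh5 changed by -0.77 (exact permutation p = 0.0476, 2-sided, adjusted p = 0.317 over 20 ratios) and that of Eng to Cdh5 by 0.55 (p = 0.0159, exact permutation, adjusted p = 0.317). None of the 20 ratios passed, and with 252 splits of 5 against 5 the smallest p a ratio can reach is 0.0079.

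Sox17, a transcription factor of arterial endothelium, stood at 2.76, 2.66, 2.12, 2.23 and 3.14 CPM in WT isotype and 3.88, 4.44, 2.33, 7.47 and 7.88 CPM in WT combination. Combination replicate 3 lay within the isotype range, and replicates 4 and 5 were far above it. Sox17 rose by 1.03 ± 0.31 (edgeR adjusted p = 0.00968). Vwf, the clotting protein that endothelium and platelets store and release, gave 33.0, 23.4, 31.3, 26.7 and 25.0 CPM under isotype and 37.9, 47.3, 40.3, 69.9 and 93.0 CPM under the combination. The groups lay apart and combination replicates 4 and 5 were again highest, for a rise of 1.06 ± 0.25 (edgeR adjusted p = 0.00216). Plvap, which forms the diaphragms of fenestrae and caveolae, measured 32.9, 41.6, 24.3, 21.1 and 33.0 CPM under isotype and 36.2, 62.5, 40.5, 50.8 and 64.3 CPM under the combination. Combination replicates 1 and 3 fell within the isotype range and the other three above it. Plvap rose by 0.76 ± 0.29 (edgeR adjusted p = 0.0366). That call was lost with the description number as a replicate block (adjusted p = 0.119), without a filter on low counts (0.109), without WT isotype replicate 1 (0.0515), 3 (0.0781), 4 (0.0973) or 5 (0.0588), or without WT combination replicate 2 (0.0868), 4 (0.0574) or 5 (0.0878).

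Leaving out each of the 21 libraries in turn called between 5 and 9 of the 10 genes. The count was 5 without WT isotype replicate 3, 4 or 5 or WT combination replicate 4 or 5, and it was 9 without WT combination replicate 3, with Cdh5 higher and Esam lower among them. Pecam1, Flt1, Eng, Vwf and Sox17 were called in all 21 refits.

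Markers of other tissues also changed between combination and isotype in WT tumours, some higher and some lower. Their counts are read beside 25.0% of all genes called higher and 25.0% called lower. In WT tumours the summed leukocyte transcripts (Ptprc, Cd52, Laptm5, Coro1a, Itgb2 and Cd53) ran from 552 to 1046 CPM under isotype and from 1717 to 2824 CPM under the combination, and all 6 of 6 rose. The 5 hepatocyte and hepatoma genes all fell, from 1146 to 4294 CPM in sum under isotype to between 144 and 1248 CPM under the combination. Fibroblast genes rose in 5 of 7 cases (sums of 2620 to 4993 and 7301 to 26180 CPM) and platelet and megakaryocyte genes in 2 of 4 tested (17.5 to 28.9 and 41.2 to 114 CPM). Mural cell genes, which mark pericytes and smooth muscle around vessels, rose in 2 and fell in 1 of 9 (457 to 853 and 596 to 904.5 CPM). None of the leukocyte, hepatoma, fibroblast or mural genes was at 0 in any library, while the platelet genes Gp1bb and Gp9 were each at 0 in most libraries. All 6 T-cell genes rose, as did 4 of 6 B-cell and 1 of 5 skeletal muscle genes. The mural and skeletal muscle counts lay near or below the shares of all genes, and the mural sums of the groups overlapped. The part of each of these lists in the endothelial changes was not tested.

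The summed level of 4 genes of the Y chromosome (Ddx3y, Eif2s3y, Kdm5d and Uty) was entered as a covariate, since it too moved with treatment. It ran from 47.6 to 79.2 CPM in WT isotype, 134.7 to 250.5 in WT combination, 46.3 to 118.9 in B-depleted isotype and 85.9 to 169 in B-depleted combination, and in WT tumours all 4 genes rose. With the covariate 0 of the 10 endothelial genes and 77 of 19061 genes overall were called in WT tumours. The endothelial changes became -1.42 for Kdr, -1.01 for Tek, -0.79 for Cdh5, -0.67 for Plvap, -0.46 for Pecam1, -0.44 for Sox17 and -0.41 for Eng. They were 0.00 for Flt1, 0.39 for Vwf and -0.04 for Esam, and the edgeR adjusted p ran from 0.114 to 0.997. The covariate and the treatment do not overlap in WT tumours, so these values rest on the slope within groups.

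**Figure D2:**
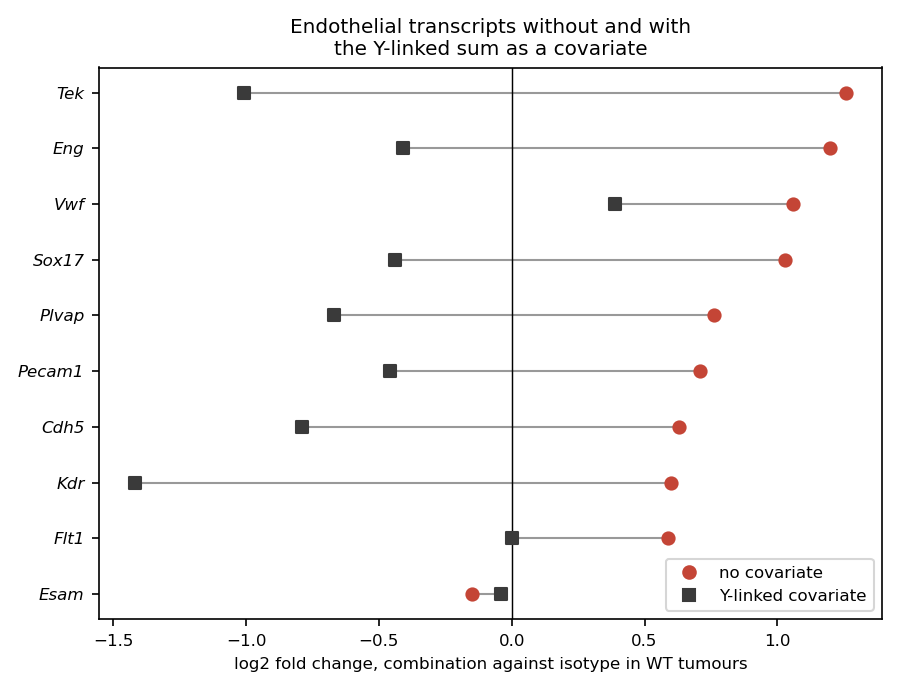
Log2 fold change of each of the 10 genes, combination against isotype in WT tumours, without (circles) and with (squares) the summed Y-linked transcripts as a covariate. With the covariate 7 genes that had positive estimates have negative ones, Kdr from 0.60 to -1.42.

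In B-depleted tumours none of the 10 endothelial genes was called between combination and isotype by edgeR, and 65 of 19061 genes (0.341%) were called at all. At an unadjusted p under 0.05 there were 2, Vwf (0.70 ± 0.24, adjusted p = 0.193) and Pecam1 (0.46 ± 0.21, adjusted p = 0.323). DESeq2 and limma voom called 0 of the 10 too, and 397 and 103 genes overall. Without B-depleted isotype replicates 3 and 5, left out after seeing the data for their B-cell and immunoglobulin transcripts, the count was 0 again, while 801 genes overall were called. The median change of the 10 was 0.27, against 0.016 over all genes, and 8 of the 10 estimates were positive.

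Vwf ran at 20.5, 23.0 and 37.6 CPM (lowest, median and highest) in the 6 B-depleted isotype libraries and at 47.8, 31.4, 37.8, 35.6 and 60.5 CPM in B-depleted combination replicates 1 to 5. Combination replicates 1, 3 and 5 lay above every isotype library. Pecam1 had 41.5, 67.6 and 97.4 CPM under isotype and 81.2, 76.0, 65.0, 86.8 and 132 CPM under the combination. Only replicate 5 of the combination left the isotype range. Cdh5, at 32.6, 58.5 and 86.3 CPM under isotype, was at 63.4, 64.5, 47.0, 62.0 and 111 CPM under the combination, again with replicate 5 alone outside (0.27 ± 0.26, edgeR adjusted p = 0.661).

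The VEGF receptor genes of the list, Kdr and Flt1, did not leave their isotype range. Kdr had 8.39, 21.6 and 52.1 CPM under isotype and 18.5, 17.2, 15.3, 21.04 and 36.3 CPM under the combination (-0.12 ± 0.38). Flt1 had 62.3, 80.5 and 116 CPM under isotype and 95.9, 75.1, 72.1, 87.3 and 95.4 CPM under the combination (0.08 ± 0.15, 2 SE spanning -0.21 to 0.37). All 5 combination libraries lay inside the isotype range for both genes. Eng, with 14.4, 28.3 and 52.1 CPM under isotype and 38.2, 31.5, 24.3, 34.9 and 48.3 CPM under the combination, stayed inside it too (0.27 ± 0.28, 2 SE spanning -0.29 to 0.83). Plvap gave 14.8, 29.6 and 55.2 CPM and 41.3, 33.7, 33.4, 24.5 and 50.9 CPM, again with the combination inside the isotype range (0.29 ± 0.28).

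Tek had 1.69, 4.19 and 6.07 CPM under isotype and 3.15, 3.47, 1.04, 6.25 and 7.93 CPM under the combination (0.18 ± 0.45). Combination replicate 3 was below every isotype library, and replicates 4 and 5 were above. Sox17 had 1.75, 3.38 and 4.75 CPM under isotype and 3.57, 4.47, 2.46, 5.04 and 6.00 CPM under the combination (0.39 ± 0.29). Combination replicates 4 and 5 lay above the isotype range. Esam held 49.5, 52.0 and 57.6 CPM under isotype and 55.0, 52.5, 55.9, 48.2 and 41.8 CPM under the combination (-0.05 ± 0.08). Combination replicates 4 and 5 lay below the isotype range. Replicate 5 of the B-depleted combination was the highest of its group for 8 genes and the lowest for Esam, and for Flt1 it was just below replicate 1. It also held the group's highest leukocyte (1980 CPM), fibroblast (24330 CPM) and Y-linked (169 CPM) sums and the lowest hepatocyte and hepatoma sum (840.3 CPM).

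**Figure D3:**
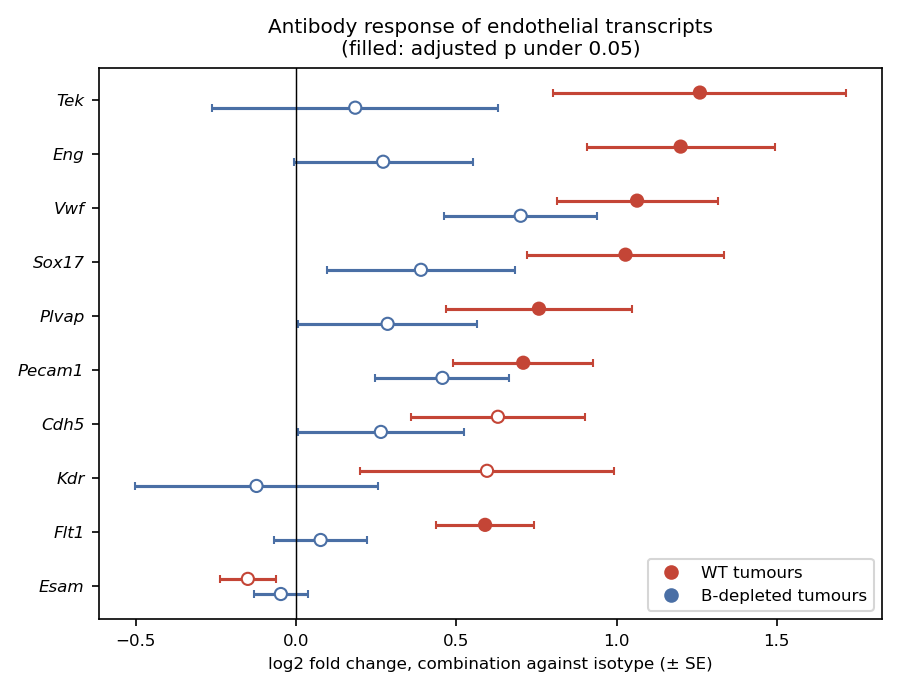
Log2 fold change ± SE, combination against isotype, for the 10 genes in WT and in B-depleted tumours; filled points passed an adjusted p of 0.05. In WT tumours 7 points are filled, from 0.59 (Flt1) to 1.26 (Tek), and in B-depleted tumours none is.

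The difference between the antibody responses of WT and B-depleted tumours was tested as the interaction. None of the 10 genes passed by edgeR (5 of 19061 genes did, 0.0262%). Flt1 (-0.51 ± 0.21, adjusted p = 0.15) and Eng (-0.93 ± 0.40, adjusted p = 0.163) were the 2 with an unadjusted p under 0.05, and DESeq2 and limma voom also called none of the 10. The estimate was negative for 9 genes and 0.10 for Esam, with a median of -0.49 against 0.013 over all genes. For Tek it was -1.08 ± 0.64 (2 SE spanning -2.35 to 0.20) and for Pecam1 -0.25 ± 0.30 (-0.86 to 0.35). So a rise in WT tumours and none called in B-depleted tumours is not shown to be a difference for any of the 10. The count of the 10 was 0 in each of 21 refits that left out 1 library.

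Without checkpoint antibodies, no endothelial gene was called between B-depleted and WT tumours. Between B-depleted and WT isotype tumours edgeR called 0 of the 10 and 0% of all genes, while 563 genes and none of the 10 had an unadjusted p under 0.05, and DESeq2 called 5 genes, limma voom 0 and both none of the 10. The changes ran from -0.10 for Pecam1 to 0.36 for Sox17. Precision differed by gene, since 2 SE on either side spanned -0.05 to 0.29 for Esam and -0.31 to 0.27 for Flt1 but -0.98 to 0.79 for Tek. The 2 groups overlapped for all 10 genes.

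Under the combination, B-depleted tumours held less of 2 endothelial transcripts than WT tumours, Eng and Flt1, and none was called higher. Over all genes 29.1% were called in this comparison and 13.5% were called lower, so 2 of 10 is near the background. It uses the same WT combination libraries as the WT comparison above and is not separate evidence. Flt1 ran from 72.1 to 95.9 CPM in B-depleted and from 107 to 136 CPM in WT combination tumours, without overlap (1 of the 10 genes, against 6.03% of all genes), and was lower, at -0.53 ± 0.15 (edgeR adjusted p = 0.0187). Eng ran from 24.3 to 48.3 CPM and from 44.6 to 87.6 CPM, with B-depleted replicate 5 above WT replicate 1, and was lower, at -0.94 ± 0.29 (edgeR adjusted p = 0.0249). The median of the 10 was -0.46. Tek (-1.17 ± 0.46, adjusted p = 0.061) and Esam (0.22 ± 0.09, adjusted p = 0.0625) were next, in opposite directions.

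These calls turned on single libraries. Eng lost its call without WT combination replicate 2 (adjusted p = 0.0576), 4 (0.0607) or 5 (0.0733) and without B-depleted combination replicate 2 (0.0562), 3 (0.068) or 4 (0.0512), and Flt1 without B-depleted combination replicate 3 (0.0533). Of the 10 genes 0 were called without B-depleted combination replicate 3, 1 without B-depleted combination replicate 2 or 4 or WT combination replicate 2, 4 or 5, 3 without WT combination replicate 1, 4 without WT combination replicate 3, and 5 without B-depleted combination replicate 5. Tek passed as lower without WT combination replicate 1 (-1.30, adjusted p = 0.0461) or 3 (-1.36, 0.0282) or B-depleted combination replicate 5 (-1.53, 0.0186). Esam passed as higher without WT combination replicate 3 (0.31, 0.00606) or B-depleted combination replicate 5 (0.27, 0.0225), and Pecam1 as lower without that last library (-0.57, 0.0343). Leukocyte genes were lower in 5 of 6 cases and all 5 hepatocyte and hepatoma genes higher in the same comparison (sums of 1029 to 1980 against 1717 to 2824 CPM, and of 840.3 to 2433 against 144 to 1248 CPM), and their part in the 2 calls was not tested. With the Y-linked covariate Eng was at -0.05 and Flt1 at -0.21, and 0 of the 10 passed.

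Within groups, 9 of the 10 genes varied together from library to library. Each gene's log2 CPM was taken as its deviation from the mean of its group, over all 21 libraries, and pairs of genes were correlated as a description. These values share library composition and depth. The 36 pairs that leave out Esam had Pearson r from 0.15 to 0.95 with a median of 0.78, and 31 of them were above 0.5. Pecam1 and Cdh5, the pair of junction genes, were closest (r = 0.95), followed by Pecam1 with Eng and Kdr with Eng (both 0.93). Kdr and Plvap reached 0.91, and Tek and Sox17 reached 0.85. Vwf was the loosest of these 9, with a median r of 0.37 to the other members and 0.15 to Flt1. Esam had r from -0.40 (Tek) to 0.07 (Plvap) with the other 9.

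The same deviations were set beside those of the marker sums, and the lists differed in how closely they followed the 9 genes. Across the 9 genes other than Esam, r with the summed Y-linked genes ran from 0.39 (Vwf) to 0.91 (Eng). It ran from 0.29 to 0.86 with leukocytes, 0.23 to 0.91 with mural cells, 0.40 to 0.82 with fibroblasts and 0.40 to 0.78 with macrophages. The median r was 0.81 with Y-linked genes, 0.79 with leukocytes, 0.77 with mural cells, 0.72 with macrophages and 0.69 with fibroblasts. The 9 genes had a median of 0.78 among themselves, so varying together is not particular to the list. With the hepatocyte and hepatoma sum r ran from -0.72 to -0.48. T cells ran from -0.09 to 0.64, with 2 of the 9 genes above 0.5, and skeletal muscle from -0.06 to 0.49. Esam had 0.46 with the hepatocyte and hepatoma sum and -0.35 with leukocytes. The platelet sum had r of 0.49 with Vwf and at most 0.31 with any other of the 10.

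**Figure D4:**
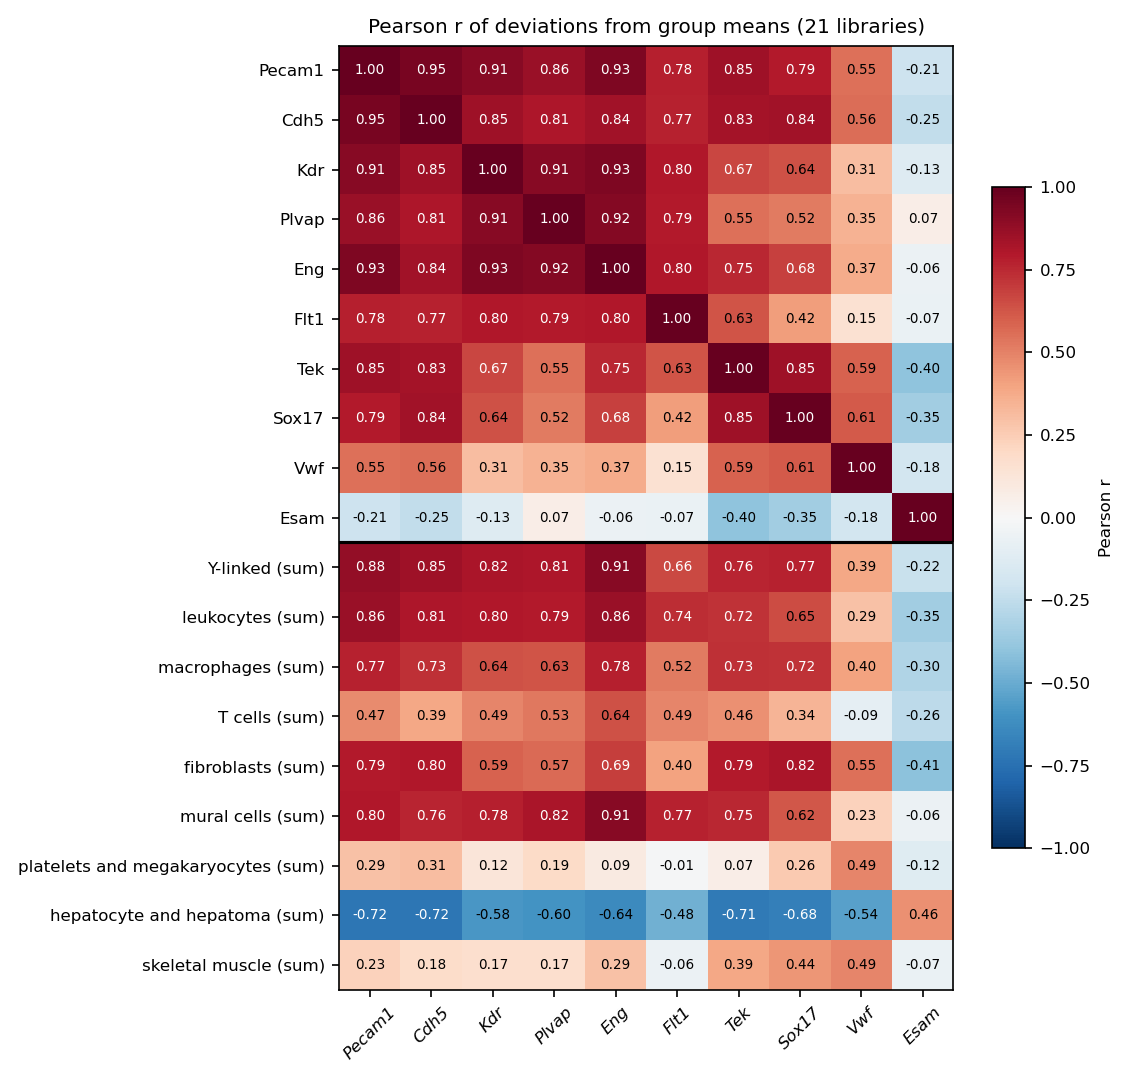
Pearson r between deviations of log2 CPM from the group mean over 21 libraries, for the 10 genes (columns and upper rows) and for sums of marker lists (lower rows). The 9 genes other than Esam form a block of positive r, 0.15 to 0.95, and the Esam row runs from -0.40 to 0.07. The Y-linked, leukocyte, macrophage, fibroblast and mural sums also had positive r with all 9.

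Among 13384 other genes with a mean of at least 1 CPM, the 10 whose deviations were most like the mean deviation of the list were Fgd5 (r = 0.961), Ptprm (0.949), Arhgap31 (0.948), Shank3 (0.946), Tie1 (0.946), Aplnr (0.943), Sox18 (0.942), Armcx3 (0.942), Pdlim4 (0.939) and Ramp2 (0.938), over 21 libraries. Tie1 encodes the partner of Tek, Aplnr the apelin receptor, Sox18 a vessel transcription factor and Ramp2 a subunit of the adrenomedullin receptor. Genes of other lists also ranked high, such as the mural Pdgfrb (r = 0.93, rank 27) and the Y-linked Uty (0.90, rank 95). Some listed vessel genes had negative r, the lowest being Id1 (-0.82), Ephb4 (-0.77), Prox1 (-0.77) and Gata4 (-0.74). Calcrl (-0.50) and Ecscr (-0.38), of the endothelial surface list, were negative too.

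Other genes of the VEGF system gave mixed counts. The lists that follow were chosen with earlier results of these data known, and their counts are set beside the background of 25.0% higher and 25.0% lower in WT tumours. Of 8 VEGF ligands and co-receptors 2 rose, 1 fell and the median was -0.03. The co-receptors Nrp1 (0.92 ± 0.22, adjusted p = 0.00268 by edgeR) and Nrp2 (0.87 ± 0.25, adjusted p = 0.00788) rose, and Flt4, the receptor of lymphatic growth factors, fell (-0.54 ± 0.15, adjusted p = 0.00686). Nrp1 stood at 85.9, 92.0, 49.7, 89.1 and 76.8 CPM in WT isotype and 127, 132, 97.5, 201 and 175 CPM in WT combination, without overlap. Vegfa, the main ligand, named here after its values were seen, had 355, 286, 263, 203 and 248 CPM in WT isotype and 204, 249.1, 253, 117 and 111 CPM in WT combination. Combination replicates 4 and 5 lay below every isotype library, and the change did not pass (-0.52 ± 0.23, adjusted p = 0.0654). In the hypoxia list 1 of 6 fell, Ndrg1 (-0.64 ± 0.23, adjusted p = 0.0241), and none rose.

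Of the 4 angiopoietin and Tie genes besides Tek, 1 rose, the orphan receptor Tie1 (0.80 ± 0.30, adjusted p = 0.0337 by edgeR), and the list median was 0.36. Around Eng, 6 of 8 listed genes were tested, since the ligand genes Gdf2 and Bmp10 were too low. Acvrl1, the kinase receptor that works with endoglin, rose (1.04 ± 0.24, adjusted p = 0.00208), from 26.6, 29.0, 16.1, 27.5 and 25.2 CPM in WT isotype to 45.2, 39.9, 38.2, 65.0 and 63.0 CPM in WT combination, without overlap. In all, 3 of the 6 fell, target genes among them. Id1, a textbook target of bone morphogenetic protein signalling in many cell types, went from 63.0, 68.9, 80.3, 76.7 and 83.5 CPM to 57.2, 36.9, 56.4, 25.7 and 22.1 CPM, without overlap (-0.89 ± 0.21, adjusted p = 0.00224). Smad6, an inhibitor that the same signal induces, fell too (-0.53 ± 0.14, adjusted p = 0.00578). All 5 hepatocyte and hepatoma genes fell in the same comparison, and their part in the falls of Id1 and Smad6 was not tested.

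Endothelial transcription factors rose in 6 of 8 cases and none fell (median 0.98). Fli1, an ETS factor that blood cells also express, went from 28.1, 28.6, 17.3, 26.5 and 29.2 CPM in WT isotype to 61.7, 62.0, 39.5, 81.2 and 88.9 CPM in WT combination, without overlap (1.38 ± 0.26, adjusted p = 0.000497 by edgeR). Tal1 (1.30 ± 0.39, adjusted p = 0.0107) and Gata2 (1.10 ± 0.45, adjusted p = 0.048), both shared with blood progenitors, rose as well. Of 16 further endothelial surface and vessel genes 7 rose and 2 fell (median 0.56). The largest rises were Cd34 (1.35 ± 0.41, adjusted p = 0.0114), a sialomucin also found on progenitors and stromal cells, Myct1 (1.22 ± 0.36, adjusted p = 0.00942) and Clec14a (1.09 ± 0.42, adjusted p = 0.0387), a lectin of tumour endothelium.

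Arterial and venous genes gave mixed counts. Of 11 Notch and arterial genes 2 rose and 2 fell (median 0.37). The gap junction gene Gja5 (1.33 ± 0.53, adjusted p = 0.0418 by edgeR) and the receptor Notch1 (0.96 ± 0.17, adjusted p = 0.000286) rose, and the ligand Jag1 fell (-0.84 ± 0.12, adjusted p = 9.32e-05). Of the 3 venous genes 2 fell, the ephrin receptor Ephb4 (-1.04 ± 0.18, adjusted p = 0.000248) and the nuclear receptor Nr2f2 (-0.89 ± 0.25, adjusted p = 0.00683). Ephb4 stood at 206, 222, 243, 241 and 239.9 CPM in WT isotype and 140.4, 104, 157.1, 84.6 and 66.9 CPM in WT combination, without overlap. Jag1, Ephb4 and Nr2f2 are expressed by epithelial and liver cells too, and all 5 hepatocyte and hepatoma genes fell in the same comparison, a part that was not tested.

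Adhesion, sprouting and subtype genes completed the set. Of 5 inducible adhesion genes, Vcam1 (0.87 ± 0.29, adjusted p = 0.019 by edgeR) and Icam1 (0.47 ± 0.18, adjusted p = 0.0353) rose, and Madcam1, the mucosal addressin, fell (-2.22 ± 0.56, adjusted p = 0.00343) from at most 2.53 CPM. Of 9 tip cell and basement membrane genes 3 rose, Apln (1.15 ± 0.22, adjusted p = 0.000505), Cxcr4 (1.13 ± 0.30, adjusted p = 0.00436) and Lama4 (0.92 ± 0.31, adjusted p = 0.0212), and none fell (median 0.91). All 6 leukocyte genes rose in the same comparison, and their part in the rises of the adhesion and tip cell lists was not tested. Liver sinusoidal genes rose in 4 and fell in 1 of 7 tested (median 1.06), and Rspo3 (2.77 ± 0.66, adjusted p = 0.0022), a Wnt agonist, Fcgr2b (1.35 ± 0.27, adjusted p = 0.000705) and Stab1 (1.15 ± 0.34, adjusted p = 0.0096) rose most. Macrophages express Stab1 and Fcgr2b too, and 8 of 8 macrophage genes rose. Of 5 lymphatic genes tested, Mmrn1 (3.06 ± 0.73, adjusted p = 0.00233) and Reln (2.21 ± 0.72, adjusted p = 0.0159) rose and Prox1, a lymphatic factor that hepatocytes share, fell (-2.19 ± 0.44, adjusted p = 0.000689). Among mural genes Myh11 (1.09 ± 0.39, adjusted p = 0.0261) and Pdgfrb (0.67 ± 0.27, adjusted p = 0.0417) rose and Kcnj8 (-0.57 ± 0.18, adjusted p = 0.0151) fell.

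**Figure D5:**
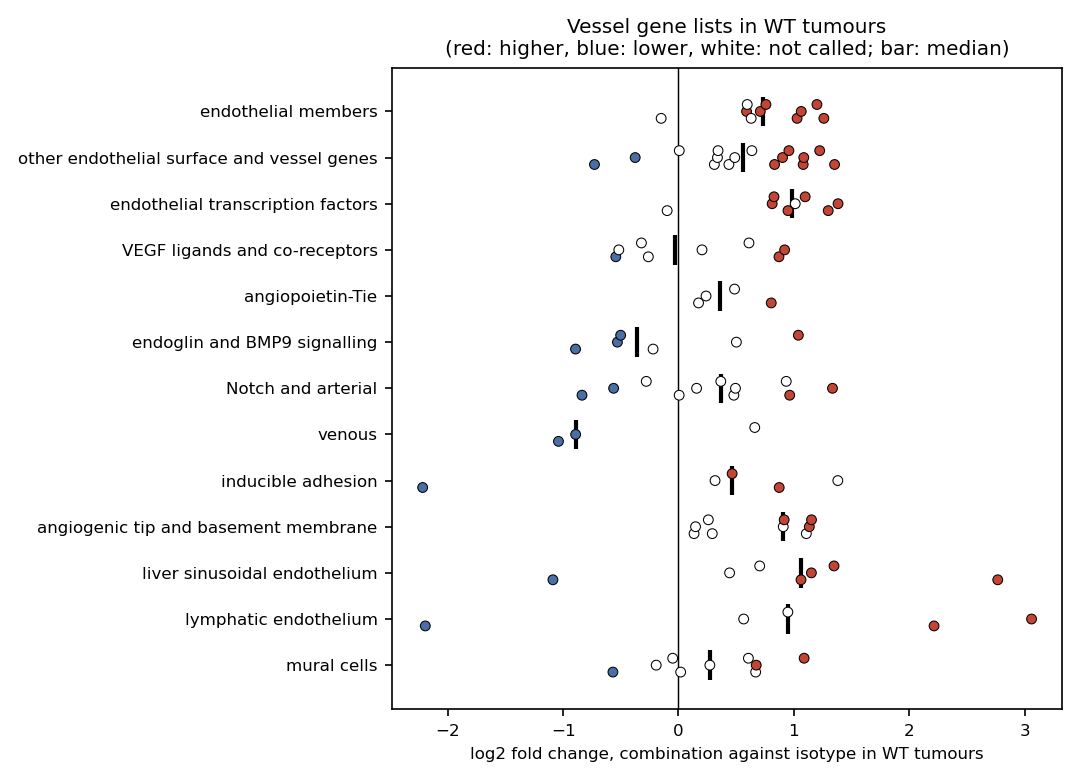
Log2 fold change, combination against isotype in WT tumours, for the genes of 13 vessel lists (1 point per tested gene, red higher, blue lower, white not called, black bars for list medians). The 10 endothelial genes have a median of 0.73, and the transcription factors of 0.98, while the endoglin (-0.36) and venous (-0.89) lists have negative medians.

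In B-depleted tumours 0 of the 91 tested genes of these 12 vessel lists were called by edgeR between combination and isotype, 11 had an unadjusted p under 0.05, DESeq2 called 1 and limma voom 0, and 0.341% of all genes were called by edgeR. In WT tumours 46 of the same 91 were called, a share near the 50.0% of all genes called there. The named genes that rose in WT tumours stood at 0.27 ± 0.21 for Nrp1, 0.33 ± 0.29 for Tie1, 0.57 ± 0.23 for Acvrl1, 0.53 ± 0.16 for Notch1, 0.72 ± 0.25 for Fli1 and 0.22 ± 0.39 for Cd34. Jag1 was at -0.17 ± 0.12 and Ephb4 at -0.20 ± 0.17. Vegfa ran from 208.3 to 324.7 CPM under B-depleted isotype and from 96.04 to 197.1 CPM under B-depleted combination, without overlap. Flt4 ran from 66.22 to 78.34 and from 49.15 to 61.84 CPM, also without overlap. Neither was called, both were picked here after their values were seen, and the other genes of the VEGF list overlapped. The share of all genes without overlap in B-depleted tumours is not given here. By edgeR 0 of the 91 passed the interaction test, 11 had an unadjusted p under 0.05, DESeq2 called 5 and limma voom 0, so these values are given beside those of WT tumours without a difference. Between B-depleted and WT tumours under the combination, edgeR called 19 of the 91, beside 29.1% of all genes. Nrp1 (-0.82 ± 0.22, adjusted p = 0.0154 by edgeR), Nrp2 (-0.75 ± 0.25, adjusted p = 0.0332), Notch1 (-0.48 ± 0.17, adjusted p = 0.0409) and Fli1 (-0.77 ± 0.26, adjusted p = 0.0352) were lower in B-depleted tumours. Id1 (0.85 ± 0.21, adjusted p = 0.0114), Jag1 (0.73 ± 0.12, adjusted p = 0.00429) and Ephb4 (0.80 ± 0.18, adjusted p = 0.0081) were higher. These genes were named for their changes in WT tumours. The same WT combination libraries enter both comparisons, so opposite signs were favoured in advance and are not separate evidence.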

How the data were processed

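Whole-number read counts per gene were deposited by the authors as 1 table of 21 libraries, with no normalization. Per the labels' protocols, total RNA came from frozen tissue and libraries from the TruSeq Stranded mRNA kit. Reads were handled with cutadapt 2.4 and STAR 2.7.2a on GRCm38, per the submitters' processing notes. The counter and its annotation were not given in the sources used here. Of 55487 identifiers, 55227 matched a GENCODE M21 symbol, and the other 260 (0.0183% of counts) stayed in the fits. Groups came from sample titles. No columns were identical.

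Counts were fitted in R 4.3.3 with edgeR 4.0.16 (filterByExpr by group, TMM factors 0.953 to 1.029, robust quasi-likelihood, 19061 genes, 4 groups, no covariate), and 5 contrasts were adjusted by Benjamini-Hochberg over all genes. SE is the log2 fold change over the root of F. DESeq2 1.42.0, limma 3.58.1 (voom), other scaling, filters, depth, blocks, a Y-linked covariate and left-out libraries were alternatives. CPM uses library totals. Ratios of CPM (0.5 counts added) were tested in Python 3.11.15 by 2-sided exact permutation over 252 or 462 splits. The fit was tested on simulated data. Exonic length is the union of a gene's exons.

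One hepatocyte marker is not reported here. The members and all lists were chosen with earlier results of these data known. Named genes are the 10 members, up to 3 called genes of largest change per list (the smallest p where none was called) and the 10 most similar genes, leaving out predicted genes, Riken clones and pseudogenes. The labels do not say whether numbers in titles pair the libraries, so the main fit held no block.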

Additional observations from a re-analysis of the deposited data

Results flagged for a closer look

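Of 40 sets of values (10 genes in 4 groups), 4 held a library far from the rest of its group, and chance alone flags about 1 set in 20. Cdh5 stood at 110.7 CPM in B-depleted combination replicate 5, where the next library had 64.5 CPM. Kdr stood at 36.3 CPM in the same library, against 21.04 CPM in the next. Tek stood at 7.40 CPM in WT isotype replicate 1, against 4.06 CPM in the next. Esam stood at 51.9 CPM in WT combination replicate 3, where the other 4 libraries had 41.8 CPM or less.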

How the results depend on the processing

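The 7 calls among the 10 genes in WT tumours ranged from 5 to 9 over left-out libraries and were 5 without a filter and 5 with the description number as a block, and the count over all genes from 7691 to 10240. With DESeq2 size factors the estimates of all 10 kept their sign in each of the 5 comparisons, and the median over all genes moved by under 0.1. With the Y-linked covariate in WT tumours 0 of the 10 and 77 genes were called, and 7 signs turned (Pecam1 -0.46, Cdh5 -0.79, Kdr -1.42, Eng -0.41, Tek -1.01, Sox17 -0.44, Plvap -0.67). In B-depleted tumours it called 31 genes (Cdh5 -0.24, Flt1 -0.12, Eng -0.20, Tek -0.64, Sox17 -0.12, Plvap -0.12), under isotype 16 (Cdh5 -0.12, Kdr -0.19), under the combination 4 and 0 of the 10 (Pecam1 0.27, Cdh5 0.43, Kdr 0.53, Tek 0.04, Sox17 0.54, Plvap 0.30), and in the interaction 0 (Pecam1 0.51, Cdh5 0.55, Kdr 0.72, Eng 0.22, Tek 0.37, Vwf 0.06, Sox17 0.32, Plvap 0.54). In B-depleted tumours all genes called were 397 by DESeq2, 103 by voom, 35 without a filter, 6 in the 2 groups alone, and 11 to 176 with 1 library left out. Between backgrounds under isotype they were 5 by DESeq2, 1 without a filter and 0 to 2 with 1 left out. For the interaction they were 1210 by DESeq2, 0 at thinned depth and 0 to 1540 with 1 left out. Under the combination the members called were 4 by DESeq2, 1 without a filter (3343 genes) and 0 to 5 with 1 left out (2182 to 7606 genes). Without WT isotype replicates 1 and 2, 40 genes were called in B-depleted tumours, 25 between backgrounds under isotype (Pecam1 0.04, Flt1 0.20, Eng 0.15, Tek 0.32, Plvap 0.21), and 2007 with 1 of the 10, Flt1 (-0.74), in the interaction, and the Pecam1 to Cdh5 ratio was -0.01. Without B-depleted isotype replicates 3 and 5, chosen after seeing the data for their B-cell and immunoglobulin transcripts, 801 genes were called in B-depleted tumours (Kdr 0.43), 0 in the interaction, and under isotype Cdh5 was -0.11, Kdr -0.37 and Vwf 0.03. Without combination replicate 5 as well, which stood apart from its group in Cdh5 and Kdr, they were 397 in B-depleted tumours (Kdr 0.13, Tek -0.05, Esam 0.03), 6 of the 10 (and 7825 genes) under the combination and 1 in the interaction, and under isotype Pecam1 was -0.30, Cdh5 -0.10, Kdr -0.37 and Vwf 0.03 (-0.22 without B-depleted isotype replicate 6). Libraries of different groups with the same title number had a median r of 0.027 (30 pairs, -0.357 to 0.553). Those with the same description number had a median of -0.028 (27 pairs). The labels do not say what these numbers pair, and low correlation cannot settle it. With the title number as a replicate block, B-depleted tumours gave 33 genes, the isotype comparison 1 (Cdh5 -0.09), the combination 4 of the 10 and the interaction 0. With the description number as a block they gave 14 (Tek -0.03) and 1 (Cdh5 -0.10, Kdr -0.04). Uncalled estimates near 0 changed sign elsewhere: Kdr 0.02 and Tek -0.03 in B-depleted tumours by voom, Plvap 0.02 under isotype at thinned depth. With 1 library left out these spans crossed 0: in B-depleted tumours Kdr -0.42 to 0.25, Tek -0.18 to 0.44 and Esam -0.08 to 0.00; under isotype Pecam1 -0.25 to 0.02, Cdh5 -0.10 to 0.18, Kdr -0.20 to 0.37, Flt1 -0.14 to 0.06, Eng -0.25 to 0.15, Tek -0.26 to 0.22 and Plvap -0.26 to 0.15. So did the ratios Kdr to Cdh5 (-0.29 to 0.00), Flt1 to Cdh5 (-0.13 to 0.12) and Flt1 to Kdr (-0.07 to 0.27) in WT, and Eng to Cdh5 (0.00 to 0.21), Tek to Cdh5 (-0.51 to 0.03) and Flt1 to Kdr (-0.08 to 0.26) in B-depleted tumours. The causes were not tested. Tek and Sox17, at 14 and 28 counts in their lowest libraries, are limited by depth.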
